A study of Mus musculus with 57 samples.

Results

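The comparison was between genotypes in how strongly the distal colon changed after AOM+DSS. AOM (azoxymethane) is a colon carcinogen, and DSS (dextran sulfate sodium) in the drinking water injures the colon epithelium and causes colitis. Of the 57 arrays of the series, the 40 from colon that was not tumor were used, in 4 groups of 10. All mice were C57BL/6 adults of 18 to 24 weeks, and the treatment protocol names females. The 4 groups were untreated INSRfl/fl mice (fl/fl below), INSRfl/fl mice after AOM+DSS, untreated villin-CRE-INSR-/- mice (knockout below), and villin-CRE-INSR-/- mice after AOM+DSS. All 4 groups carry floxed Insr alleles, and fl/fl mice are described as littermates of the knockouts. The labels do not say whether fl/fl mice carried Cre. Treated mice received 7.4 mg/kg AOM by injection and, in week 2, 3% DSS over 7 days, and their tissue was collected in week 5. The villin promoter drives Cre in the intestinal epithelium, so other cells of the colon wall keep an intact Insr gene. All 22180 genes with a probe set of a single symbol were tested, and the value for each gene is (knockout AOM+DSS − knockout untreated) − (fl/fl AOM+DSS − fl/fl untreated) on the log2 scale. It is called the response difference here, and it is positive where the knockout rose more, or fell less, than fl/fl.

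The insulin receptor is a tyrosine kinase that binds insulin and insulin-like growth factors. It signals through the adaptors Irs1 and Irs2 to the PI3K and AKT kinases, which promote growth and glucose and lipid metabolism, and to the MAPK cascade. After DSS injury the colon recruits neutrophils, monocytes and lymphocytes, remodels its matrix and closes the wound from surviving crypts, while mature epithelial functions such as transport and detoxification fall. Bulk tissue cannot separate fewer cells of a type from less RNA per cell, and this holds for every gene group below.

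Insr itself checks the labels. Insr ran from 8.70 through a median of 9.01 to 9.16 in untreated fl/fl colon, from 8.28 through 8.51 to 8.94 in treated fl/fl colon, from 7.74 through 8.04 to 8.29 in untreated knockout colon and from 7.52 through 7.72 to 7.96 in treated knockout colon (log2 level). Every knockout array lay below every fl/fl array of the same treatment. On the linear scale the knockout held 52.3% of the fl/fl level in untreated and 55.8% in treated colon. Which part of the gene the probe set covers is not given, so the level is not a measure of intact transcript. Insr fell after AOM+DSS by 0.40 in fl/fl (limma, adjusted p = 0.000259) and by 0.30 in knockout colon (adjusted p = 0.0026), and the response difference was 0.09 ± 0.11 (SE, limma, adjusted p = 0.898, 95% interval −0.13 to 0.32). The epithelial gene Lgals4, a lectin of the gut, ran from 12.83 to 13.17 over the 40 arrays, in the top percentile by mean level. Hoxb13, a gene of the distal colon, ran from 7.63 to 9.27. An untreated knockout array, replicate 2, stood apart: its mean correlation with its group was 0.98147, the lowest of the 40, its goblet cell genes averaged 11.38 against 10.69 on the next array, and its Hoxd13, another distal gene, was at 6.11. A treated knockout array, also numbered 2, held several genes far below the rest of its group. Among them were the cytokine Il1b at 7.59, the chemokine Ppbp at 5.29 and Krt6a, a gene of squamous epithelium, at 4.22. Treated fl/fl replicate 1 held several inflammatory genes within the range of untreated fl/fl colon. Its neutrophil list mean was 5.515 (untreated fl/fl 5.408 to 5.665) and its acute-phase list mean 5.51 (5.43 to 5.98). Its Il1b was 6.54 (untreated fl/fl up to 6.86), while its macrophage list mean of 8.95 lay above all untreated fl/fl arrays (up to 8.68).

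No gene passed the test of the response difference. The count was 0 of 22180 genes (0%, limma, Benjamini-Hochberg adjusted p under 0.05), with a smallest adjusted p of 0.371, while 1480 genes (6.67%) had an unadjusted p under 0.05. Of these, 867 (3.91%) had a positive and 613 (2.76%) a negative response difference. The median SE was 0.111, which gives a 95% half-width of 0.225. For 21805 genes (98.3%) the whole unadjusted interval lay within 1 log2 unit of no difference, and for 19119 (86.2%) within 0.5. These shares cover all genes, and intervals were wider in the strongest responders. All 6 genes named for the largest average rise had intervals beyond 1, such as −2.28 to 2.84 for Ppbp and −0.71 to 1.35 for Il1b. Of the 6 named for the largest fall, only Slc37a2 and Fxyd4 stayed within 1. Without the untreated knockout array that stood apart, 1 gene passed, Klhl23, described below. Without that array and the treated knockout array numbered 2, the count was 0, and 1792 genes had an unadjusted p under 0.05.

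Both genotypes responded strongly on their own. In fl/fl colon 5345 genes passed (24.1%), of which 2799 rose (12.6%) and 2546 fell (11.5%). In knockout colon 6955 passed (31.4%), of which 3614 rose (16.3%) and 3341 fell (15.1%). Shifting all arrays to 1 median moved the fl/fl split to 3508 risers and 1414 fallers. Averaged over both genotypes 9697 genes passed (43.7%), and 4431 rose (20%) and 5266 fell (23.7%). With equal groups of equal spread this average is independent of the response difference, so genes grouped by it are not chosen for how the genotypes differ. The spread was not fully equal, so this holds only approximately. The mean of the genes that rose had an SD of 0.13 in treated fl/fl and of 0.086 in treated knockout colon. The response difference was positive in 73% of the risers, with a median of 0.08 (0.25 in fl/fl, 0.31 in knockout), and negative in 63.1% of the fallers, with a median of −0.04. Over all genes tested 52.1% were positive, with a median of 0.0065. Among the 263 genes that rose at least 2-fold, 83.7% were positive, and the median response was 1.19 in fl/fl and 1.49 in knockout colon. Of the 17 genes that fell at least 2-fold, 76.5% were negative, with medians of −1.15 in fl/fl and −1.41 in knockout colon. Genes vary together across arrays, so these shares are a description and carry no test. With the arrays shifted to 1 median the shares were 61.3% of risers and 74.8% of fallers. With the mean of the B and T cell lists as a covariate, added to the shares after seeing the data, they were 56.3% of the 151 genes that then rose and 89.9% of the 99 that then fell. That covariate differed between the groups, so in this fit the average is not independent of the response difference. These 2 shares may therefore be partly built in.

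**Figure D1:**
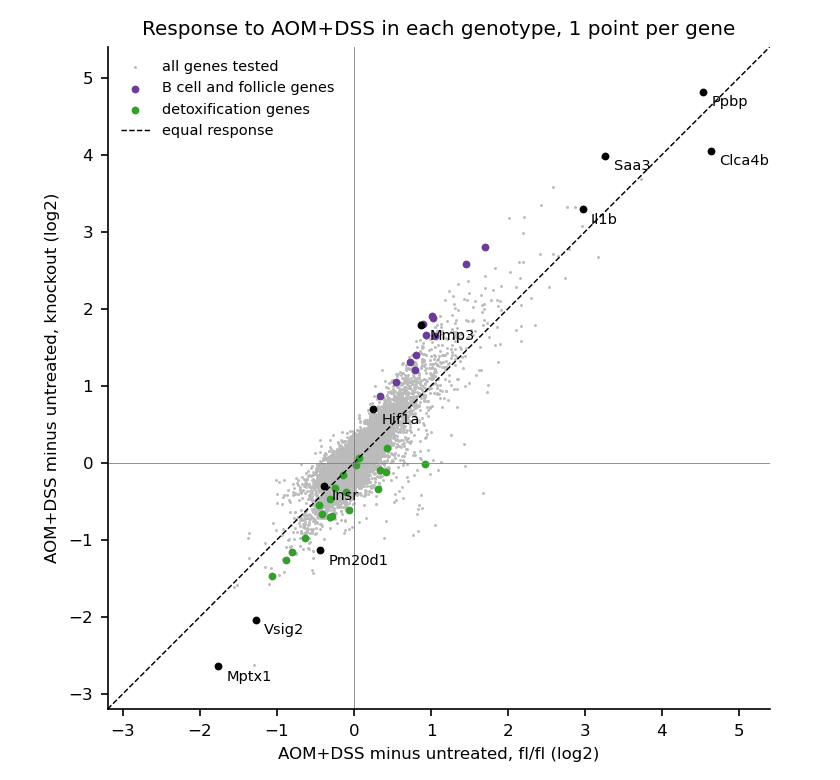
Each grey point is 1 of 22180 genes, with its change after AOM+DSS (log2) in fl/fl colon on the horizontal axis and in knockout colon on the vertical axis; the dashed line marks equal responses, purple points are B cell and follicle genes, green points detoxification genes and black points single named genes. All 12 purple points lie above the line and the 20 green points below it, while Ppbp and Il1b lie close to it.

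The genes with the largest average rise differed little between genotypes relative to their spread. Ppbp, a platelet and neutrophil-attracting chemokine, rose by 4.54 in fl/fl and by 4.82 in knockout colon, a response difference of 0.28 ± 1.27. Treated colon ran from 5.32 through a median of 12.12 to 12.74 in fl/fl and from 5.29 through 12.43 to 12.95 in knockout mice, so each genotype held at least 1 treated array at the level of untreated colon. Il1b, a proinflammatory cytokine, rose by 2.97 and 3.29, and Saa3, an acute-phase protein of inflamed mucosa, by 3.26 and 3.99, with response differences of 0.32 ± 0.51 and 0.72 ± 0.61. Clca4b, a calcium-activated chloride channel regulator, rose by 4.64 in fl/fl and 4.06 in knockout colon. Krt6a and Tmprss11g, genes of stratified squamous epithelium, rose by 3.73 and 3.68, and by 3.22 and 3.97. Ppbp was high together with Krt6a on untreated fl/fl replicates 1 and 3 (10.34 and 9.46, Krt6a 9.49 and 8.66). Both were low on treated fl/fl replicate 6 (5.32 and 4.54), where Il1b was 8.83. The part of squamous cells in the Ppbp level was not tested. Of the 6 genes with the largest average rise, none passed the test of the response difference.

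Among the 6 genes with the largest average fall, Ang4, Mptx1 and Vsig2 had the widest gaps between genotypes. Mptx1, a mucosal pentraxin, ran from 10.87 through 11.32 to 11.69 in untreated and from 8.12 through 9.54 to 10.68 in treated fl/fl colon. In knockout colon it ran from 10.15 through 10.81 to 11.82 untreated and from 6.29 through 8.28 to 9.30 treated. Treated and untreated arrays did not overlap in either genotype, and 4 treated knockout arrays lay below the lowest treated fl/fl array. Mptx1 fell by 1.77 in fl/fl and fell by 2.65 in knockout colon, a response difference of −0.88 ± 0.42 (limma, adjusted p = 0.742), and the knockout minus fl/fl difference in treated colon was −1.33 (adjusted p = 0.032). That call was lost without treated fl/fl replicate 1 (adjusted p = 0.0975), 1 of 8 arrays that each undid it when left out alone. Vsig2, an immunoglobulin-domain membrane protein of the gut surface, fell by 1.27 and by 2.04, a difference of −0.77 ± 0.25 (adjusted p = 0.72), or −0.58 without the untreated knockout array that stood apart, where Vsig2 was 10.09 against 8.62 on the next array. Slc37a2, a sugar-phosphate transporter, and Fxyd4, a regulator of the sodium pump, fell by about the same amount in both, with response differences of −0.06 ± 0.42 and −0.06 ± 0.44. Without the same knockout array, the lowest of its group in both genes, these were −0.26 and −0.35. Naaladl1, a peptidase, fell by 1.1 and by 1.57. Ang4, an antimicrobial ribonuclease, fell by 2.62 in knockout colon and had a response of −1.30 in fl/fl colon, where it did not pass (limma, adjusted p = 0.169). Its response difference was −1.33 ± 0.98.

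Of the brighter genes with the smallest unadjusted p among positive differences, Mmp3 had the largest value of the 12 named. Mmp3, or stromelysin-1, cuts matrix proteins and activates other metalloproteinases. It ran from 4.63 through 5.07 to 5.57 in untreated and from 5.30 through 5.85 to 7.36 in treated fl/fl colon, and from 4.86 through 5.31 to 5.55 in untreated and from 5.96 through 6.91 to 7.84 in treated knockout colon. All 10 treated knockout arrays lay above every untreated array, 7 of the 10 treated fl/fl arrays lay below the lowest treated knockout array, and the treated groups overlapped. Mmp3 rose 1.83-fold in fl/fl and 3.44-fold in knockout colon, and the response difference was 0.91 ± 0.27 (limma, unadjusted p = 0.00138, adjusted p = 0.648). Leaving out single arrays moved it between 0.82 and 1.07.

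Klhl6, a ubiquitin ligase adaptor of germinal centre B cells, and Grap2, an adaptor of T cell receptor signalling, followed a like course. Klhl6 ran from 6.01 through 6.53 to 7.07 in treated fl/fl and from 6.71 through 7.00 to 7.54 in treated knockout colon, and 8 of the treated fl/fl arrays lay below all treated knockout arrays. It rose by 0.55 and by 1.08, a response difference of 0.53 ± 0.15 (limma, adjusted p = 0.581). Grap2 rose by 0.52 and by 1.06, a difference of 0.54 ± 0.16 (adjusted p = 0.648). Hif1a, the oxygen-regulated transcription factor subunit, was at a median of 10.37 in untreated and 10.62 in treated fl/fl colon and of 10.16 and 10.81 in knockout colon. The treated groups overlapped, with 4 treated knockout arrays above the highest treated fl/fl array, and 9 treated knockout arrays lay above all untreated knockout arrays against 3 of the fl/fl arrays above theirs. Hif1a rose by 0.25 and by 0.70, a difference of 0.45 ± 0.13 (adjusted p = 0.648), which was 0.37 without the untreated knockout array that stood apart.

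In single genes below, a change given as a response did not pass, while rose and fell are kept for changes that passed. Other positive differences belonged mostly to genes that rose in knockout colon and did not pass in fl/fl. Ctcf, the insulator-binding protein, had a response of 0.05 in fl/fl and rose by 0.28 in knockout colon, and Ddx46, a splicing helicase, had a response of 0.01 and rose by 0.25. Cep135, a centriole protein, had a response of 0.21 and rose by 0.60, B3gnt5, a glycosphingolipid synthase, had a response of −0.01 and rose by 0.36, Phf11a had a response of −0.16 and rose by 0.30, and Bend5 had a response of −0.12 and rose by 0.25. Ifna4, a type I interferon, and Afap1l2, an adaptor of Src kinases, went the other way round: they fell by 0.26 and by 0.29 in fl/fl and had responses of 0.11 and 0.04 in knockout colon. A gene that passes in 1 genotype and not in the other is not shown to differ between them, and the adjusted p of the response difference was 0.41 for Ifna4 and 0.602 for Afap1l2.

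**Figure D2:**
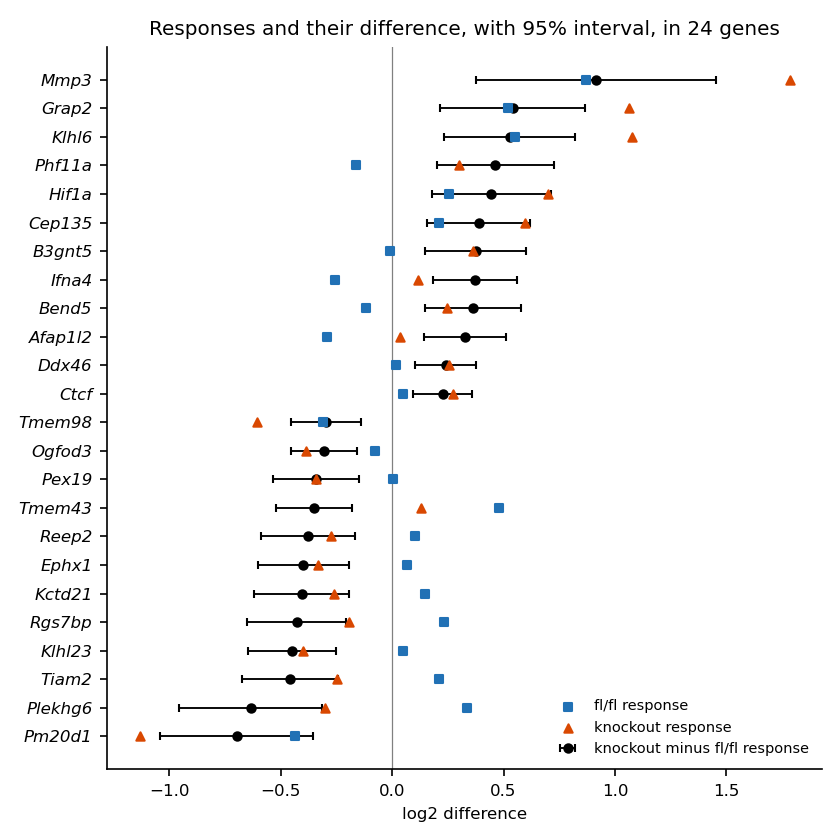
Squares and triangles show the change after AOM+DSS (log2, horizontal axis) in fl/fl and knockout colon for the 24 genes named by the smallest unadjusted p, and black circles with bars show the response difference with its 95% interval, not adjusted over genes. The intervals of these 24 genes leave out 0, from Mmp3 at the top (0.91) to Pm20d1 at the bottom (−0.70), and none of the 24 has an adjusted p under 0.05.

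Among all genes, Klhl23 had the smallest unadjusted p, with a negative difference. It ran from 7.11 through 7.30 to 7.51 in untreated and from 7.07 through 7.35 to 7.64 in treated fl/fl colon, and from 7.08 through 7.52 to 7.65 in untreated and from 6.83 through 7.12 to 7.25 in treated knockout colon. The treated knockout arrays had the lowest median and overlapped every other group. Klhl23 had a response of 0.05 in fl/fl and fell by 0.40 in knockout colon, a response difference of −0.45 ± 0.098 (limma, unadjusted p = 4.03e-05, adjusted p = 0.371). Without the untreated knockout array that stood apart, at 7.08 the lowest of its group, the difference was −0.50 and passed (adjusted p = 0.045). With the treated knockout array numbered 2 left out as well, no gene passed (smallest adjusted p = 0.0789).

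Pm20d1, an enzyme that joins fatty acids to amino acids, had the largest negative value of the 12 named by p. It ran from 7.73 through 8.03 to 8.23 in untreated and from 7.09 through 7.58 to 7.89 in treated fl/fl colon, and from 7.68 through 8.05 to 8.38 in untreated and from 6.21 through 6.98 to 7.50 in treated knockout colon. All treated knockout arrays lay below all untreated ones, and 8 of them lay below every treated fl/fl array. Pm20d1 fell by 0.44 and by 1.13, a difference of −0.70 ± 0.17 (limma, adjusted p = 0.371), and the knockout minus fl/fl difference in treated colon was −0.68 (adjusted p = 0.0096). Tmem98, a membrane protein, fell by 0.31 and by 0.61. Ogfod3 fell by 0.39 in knockout colon and had a response of −0.08 in fl/fl. Ephx1, the microsomal epoxide hydrolase that detoxifies reactive epoxides, had a response of 0.07 in fl/fl and fell by 0.33 in knockout colon, and Pex19, a peroxisome assembly factor, had a response of 0.00 and fell by 0.34. Kctd21 and Reep2 fell by 0.26 and by 0.28 in knockout colon and had responses of 0.15 and 0.10 in fl/fl. Tmem43, a nuclear envelope protein, rose by 0.48 in fl/fl, where all 10 treated arrays lay above all untreated ones, and had a response of 0.13 in knockout colon.

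Tiam2, Plekhg6 and Fzd2 passed in both genotypes in opposite directions, with 1 olfactory receptor gene that is counted and not named. Tiam2, an exchange factor for the small GTPase Rac, rose by 0.21 in fl/fl and fell by 0.25 in knockout colon. It ran from 6.89 through 7.02 to 7.15 in treated fl/fl and from 6.65 through 6.80 to 6.96 in treated knockout colon, and 9 of the 10 treated knockout arrays lay below every treated fl/fl array. Plekhg6 rose by 0.34 and fell by 0.30, and Fzd2, a Wnt receptor, rose by 0.26 and fell by 0.29. Rgs7bp, which anchors a regulator of G protein signalling, rose by 0.23 in fl/fl and had a response of −0.20 in knockout colon. The knockout minus fl/fl differences of Tiam2, Plekhg6 and Fzd2 were 0.24, 0.26 and 0.25 in untreated and −0.22, −0.38 and −0.30 in treated colon, and none of these 6 passed. These genes were chosen for opposite responses, so their response differences are a description: −0.46 ± 0.11 for Tiam2, −0.64 ± 0.16 for Plekhg6 and −0.55 ± 0.13 for Fzd2.

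**Figure D3:**
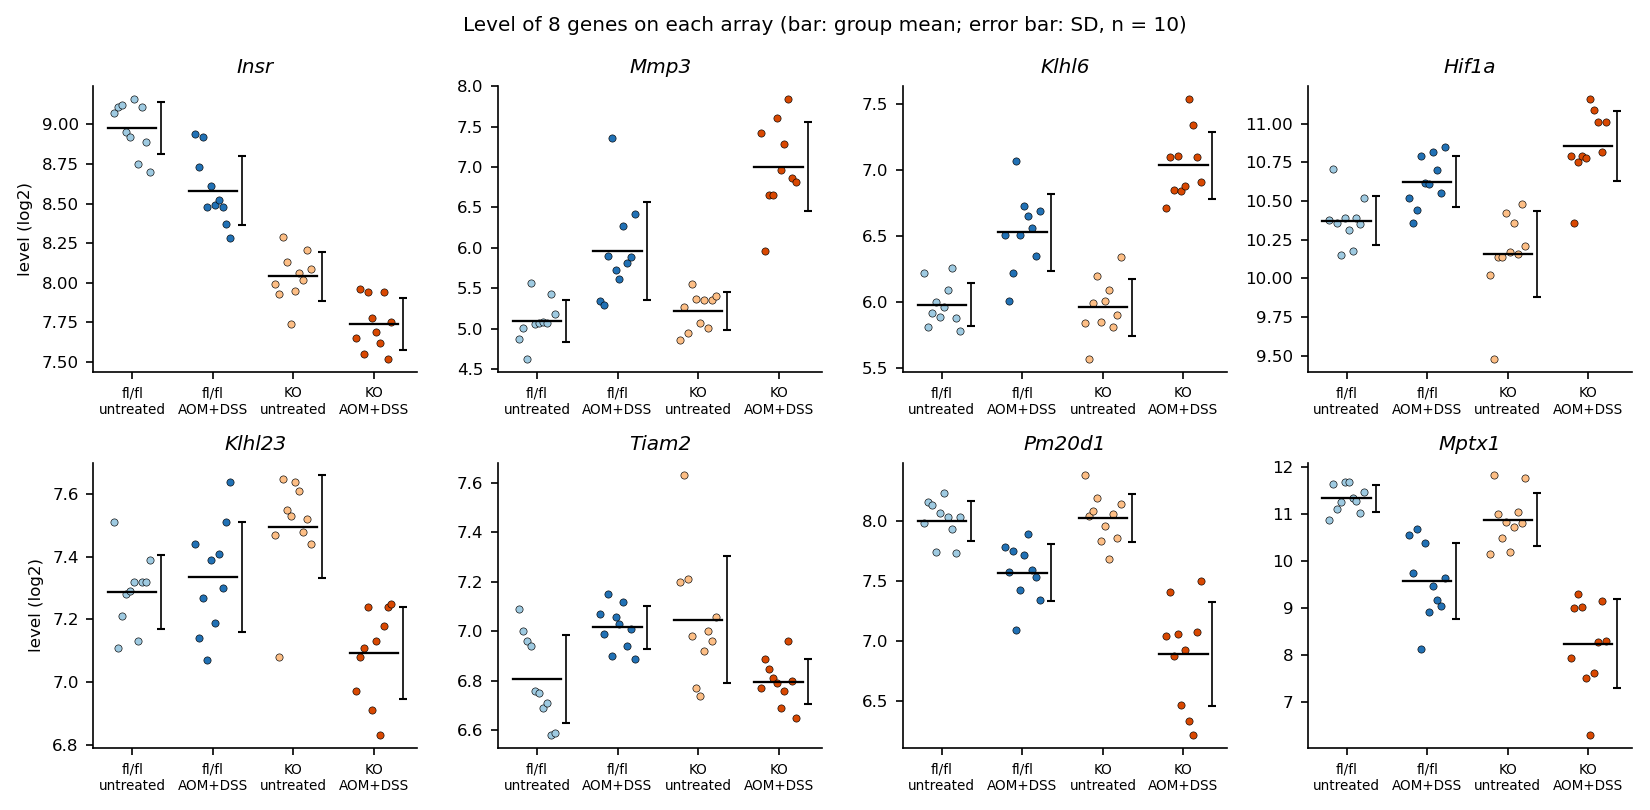
Each point is the level (log2, vertical axis) of a gene on 1 array in fl/fl untreated, fl/fl AOM+DSS, knockout (KO) untreated and knockout AOM+DSS colon; the horizontal bar is the group mean and the error bar 1 SD (n = 10). Insr lies lower in both knockout groups, Mmp3, Klhl6 and Hif1a rose and Pm20d1 and Mptx1 fell in both genotypes, Klhl23 has its lowest median (7.12) in treated knockout colon, and Tiam2 rose in fl/fl and fell in knockout colon.

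Genes of B cells and lymphoid follicles had the largest positive median among lists with at least 10 measured members. Of 12 measured members, 11 rose in fl/fl and 12 in knockout colon (background 12.6% and 16.3%), with median responses of 0.92 and 1.65 and a median response difference of 0.66, against 0.0065 over all genes. All 12 differences were positive, and 10 had an unadjusted p under 0.05, where 3.91% of all genes did so in that direction. None passed over all genes, with a smallest adjusted p of 0.72. Cr2, the complement receptor of B cells and follicular dendritic cells, ran from 4.92 through 5.6 to 6.85 in untreated and from 5.46 through 7.24 to 8.85 in treated fl/fl colon, and from 5.03 through 5.22 to 7.11 in untreated and from 7.73 through 8.00 to 8.67 in treated knockout colon. Treated knockout arrays were tightly grouped above all untreated ones, and 8 of the 10 treated fl/fl arrays lay below them. Cr2 rose by 1.46 and by 2.58, a difference of 1.12 ± 0.41 (limma, adjusted p = 0.721). Cd22, a brake on B cell receptor signalling, had a difference of 0.91 ± 0.30, Fcmr, the receptor for IgM, of 0.90 ± 0.32, and Pax5, the factor that fixes B cell identity, of 0.50 ± 0.17.

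The list mean shows how the spread was shared out. In treated fl/fl colon the mean of the 12 genes ran from 6.33 through 7.71 to 8.82 and in treated knockout colon from 8.00 through 8.22 to 8.53, while untreated arrays ran from 6.17 to 7.50 in fl/fl and from 6.23 to 7.48 in knockout mice. The highest and the lowest of all treated arrays were both fl/fl, and the knockout arrays spanned a much narrower range. Leaving out the lowest treated fl/fl array gave a median response difference of 0.51, and leaving out the highest gave 0.80. The labels do not say how many lymphoid follicles the tissue held, and their part in the result was not tested.

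T cell genes went the same way by a smaller amount. Of 14 measured members, 11 rose in fl/fl and 13 in knockout colon (background 12.6% and 16.3%), with median responses of 0.44 and 0.71. Of the differences, 13 were positive (52.1% of all genes). An unadjusted p under 0.05 was found in 5, all positive (3.91% of all genes in that direction). Cd2, an adhesion receptor of T cells, rose by 0.29 and by 0.71, Ctla4, an inhibitory receptor, by 0.43 and by 0.88, Foxp3, the factor of regulatory T cells, by 0.32 and by 0.71, and Icos, a costimulator, by 0.71 and by 1.04. Icos was also higher in treated knockout than in treated fl/fl colon, by 0.49 (limma, adjusted p = 0.0275), the only T cell gene of the list to pass there, where 0.803% of all genes passed. The Icos call was lost with the B and T cell mean as a covariate (0.24, limma, adjusted p = 0.693). That mean includes Icos itself, so this loss may be partly built in. The call was also lost with a smooth muscle covariate (adjusted p = 0.105) and when any 1 of 8 arrays was left out alone, such as treated knockout replicate 8 (adjusted p = 0.093). Plasma cell genes had a median response difference of 0.18 with no member at an unadjusted p under 0.05, or 0.12 without untreated fl/fl replicate 4. Among MHC class II genes, H2-Ob and H2-Oa, which form a regulator of peptide loading found mainly in B cells, had differences of 0.61 ± 0.24 and 0.55 ± 0.23, while the list median was −0.04.

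**Figure D4:**
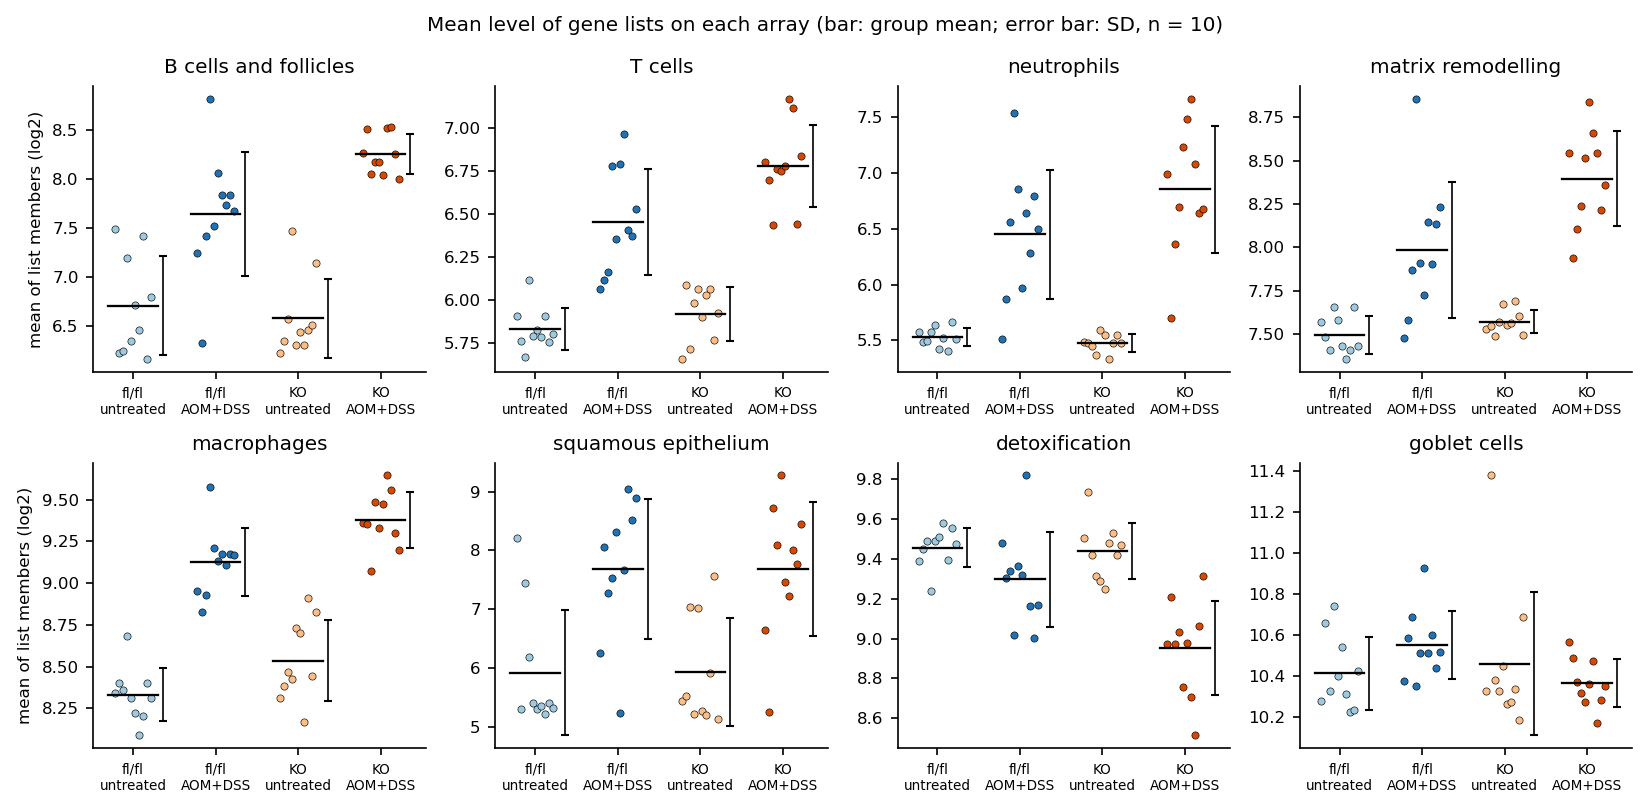
Each point is the mean level of a gene list (log2, vertical axis) on 1 array in the 4 groups of 10; bars are group means and error bars 1 SD. Treated knockout arrays of the B cell and follicle list lie between 8.00 and 8.53 and treated fl/fl arrays between 6.33 and 8.82. The macrophage list rose in both genotypes, with knockout means above fl/fl means both untreated (8.54 against 8.33) and treated (9.38 against 9.13). The squamous list rose in both to like levels, and the detoxification list is lowest in treated knockout colon.

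Neutrophil genes rose in both genotypes. Of 16 measured members 12 rose in each (background 12.6% and 16.3%), with median responses of 1.1 in fl/fl and 1.66 in knockout colon, and all 16 response differences were positive, with a median of 0.48. Cxcr2, the receptor that draws neutrophils towards chemokines, ran from 6.68 through 8.06 to 9.42 in treated fl/fl and from 6.76 through 8.67 to 9.41 in treated knockout colon, nearly the same range. It rose by 1.48 and by 2.36, a difference of 0.89 ± 0.37 (limma, adjusted p = 0.729). Mmp9, a gelatinase stored by neutrophils, had a difference of 0.69 ± 0.28 and S100a8, a calprotectin subunit, of 0.88 ± 0.45, and these were the members with the smallest p beside Il1r2, the decoy receptor of interleukin-1. Of the 16 members, only Cxcr2 and Mmp9 had an unadjusted p under 0.05, where 3.91% of all genes did so in that direction. With the mean of the B and T cell lists as a covariate, an alternative chosen after seeing the data, the median difference was 0.17 for neutrophil genes, 0.17 for cytokines, 0.29 for acute-phase genes and 0.12 for matrix remodelling genes, in place of 0.48, 0.28, 0.57 and 0.31.

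Cytokines and chemokines had a median response difference of 0.28, with 21 of 23 members positive (52.1% of all genes). Of the positive ones, 5 had an unadjusted p under 0.05 (3.91% of all genes in that direction). Il6, an inducer of the acute-phase response, was at a median of 3.48 in untreated and 3.75 in treated fl/fl colon and of 3.35 and 4.17 in knockout colon. Its levels are low on this platform and the treated groups overlapped. Il6 had a response of 0.26 in fl/fl (limma, adjusted p = 0.204) and rose by 0.86 in knockout colon, a difference of 0.60 ± 0.21, or 0.45 without treated knockout replicate 6. Ccl3, a chemokine for monocytes and lymphocytes, rose by 1.30 and by 2.06, a difference of 0.76 ± 0.27, and 6 treated knockout arrays lay above the highest treated fl/fl array. Acute-phase and alarmin genes had median responses of 0.85 and 1.59 and a median response difference of 0.57. Only Saa2 and Chil3, 2 of 13 members, had an unadjusted p under 0.05, both positive (3.91% of all genes in that direction). Chil3, a chitinase-like protein of myeloid cells, rose by 0.85 and by 1.59, while Saa2 passed in neither genotype.

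Matrix remodelling genes shifted in the same direction. Of 17 measured members, 11 rose in fl/fl and 12 in knockout colon (background 12.6% and 16.3%). The median response difference was 0.31, and 15 were positive (52.1% of all genes). An unadjusted p under 0.05 was found in 5, all positive, where 3.91% of all genes did so in that direction. Plat, the tissue plasminogen activator, rose by 0.54 and by 1.15, a difference of 0.61 ± 0.20, and was higher by 0.57 in treated knockout than treated fl/fl colon (limma, adjusted p = 0.0447), as was Mmp3, by 1.04 (adjusted p = 0.0103). With the B and T cell mean as a covariate neither passed (Plat 0.45 and Mmp3 0.65, limma, adjusted p = 0.693 for both), nor with a smooth muscle covariate (adjusted p = 0.167 and 0.0547). The B and T cell lists were themselves higher in treated knockout than treated fl/fl colon (B cell mean 8.26 against 7.65, T cell 6.78 against 6.45). Loss of a call between treated groups under that covariate may thus be partly built in. Plat also failed with arrays shifted to 1 median (adjusted p = 0.0605) and when any 1 of 13 arrays was left out alone, such as treated knockout replicate 8 (adjusted p = 0.116), while Mmp3 passed without each array. Adamts4, an aggrecanase, passed in neither genotype, with responses of −0.20 and 0.26. Fibroblast genes had a median response difference of 0.13, or 0.09 without treated fl/fl replicate 6. Pdgfra, a growth factor receptor of fibroblasts, rose by 0.27 and by 0.61 and was higher by 0.39 in treated knockout than treated fl/fl colon (limma, adjusted p = 0.0478), a call lost under both covariates and when any 1 of 25 arrays was left out alone, such as treated fl/fl replicate 1 (adjusted p = 0.129). Col1a1 and Col3a1, the main fibrillar collagens, had differences of 0.40 ± 0.17 and 0.32 ± 0.15.

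The stretch before the start of Mmp3 is shown because it shares a short pattern with those of other matrix metalloproteinases, and that of Mmp13, collagenase-3, for comparison. Both were taken from the RefSeq promoter table (GRCm38.p6), limited to the 250 bases before the start, and Mmp13 was chosen for its match after its values were seen. Capitals mark the letters TGANTCA, the core that AP-1 factors bind.
Mmp3, chr9:7445572-7445821, + strand: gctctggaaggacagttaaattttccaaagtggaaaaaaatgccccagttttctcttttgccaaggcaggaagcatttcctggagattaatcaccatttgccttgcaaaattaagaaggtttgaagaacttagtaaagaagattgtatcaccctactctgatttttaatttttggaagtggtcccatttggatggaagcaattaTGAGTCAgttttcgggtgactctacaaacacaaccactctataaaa
Mmp13, chr9:7272264-7272513, + strand: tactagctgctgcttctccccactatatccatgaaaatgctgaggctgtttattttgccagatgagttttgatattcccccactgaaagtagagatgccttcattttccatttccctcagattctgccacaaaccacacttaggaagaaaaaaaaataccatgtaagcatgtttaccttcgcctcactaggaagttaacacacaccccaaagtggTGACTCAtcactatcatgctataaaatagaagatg
The match begins 46 bases before the start of Mmp3 and 35 before that of Mmp13. Of 12 matrix remodelling genes in the table, 5 held these letters on either strand, namely Mmp3, Mmp7, Mmp10, Mmp12 and Mmp13, against 7.44% of 16990 tested genes in the table. All 5 belong to the same gene family, so their matches need not be independent of each other. Mmp13 rose by 0.61 in fl/fl and by 1.14 in knockout colon, a response difference of 0.52 ± 0.32. The octamer ATGCAAAT, bound by Oct factors in B cells, was found before none of 8 B cell genes, where 1.75% of genes held it. The canonical site of NF-kB was found before none of 16 cytokine genes (0.182% of genes), and TTCNNNGAA, a STAT site, before 2 of 11 acute-phase genes (7.82% of genes). A match is a description of letters, not of binding, and these 5 patterns were searched on both strands without regard to overlap.

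Most macrophage and interferon genes rose in both genotypes, with small gaps between the medians. All 13 measured macrophage genes rose in each, with median responses of 0.76 and 0.85. The background for this list and the interferon lists below was 12.6% in fl/fl and 16.3% in knockout colon. Fcgr1, the high-affinity IgG receptor, rose by 1.02 and by 1.25, a difference of 0.23 ± 0.24. Mrc1, the mannose receptor, rose by 0.62 and by 0.82. Of 18 genes induced by interferon gamma 16 rose in each, with medians of 1.06 and 1.09, and of 16 genes induced by type I interferons 15 rose in each, with medians of 1.27 and 1.09. Oasl2, an interferon-induced protein of the oligoadenylate synthetase family, had the only unadjusted p under 0.05 in these lists, with rises of 1.87 and 1.31 and a difference of −0.56 ± 0.27 (limma, adjusted p = 0.745). Ifit1, which binds foreign RNA, rose by 2.17 and by 2.05, a difference of −0.12 with a 95% interval of −0.78 to 0.55. The 250 bases before its start are shown with the core of the interferon-stimulated response element (TTTC, any 2 bases, TTTC) in capitals, because 6 of 10 type I interferon genes in the table held them against 3.4% of genes.
Ifit1, chr19:34640639-34640888, + strand: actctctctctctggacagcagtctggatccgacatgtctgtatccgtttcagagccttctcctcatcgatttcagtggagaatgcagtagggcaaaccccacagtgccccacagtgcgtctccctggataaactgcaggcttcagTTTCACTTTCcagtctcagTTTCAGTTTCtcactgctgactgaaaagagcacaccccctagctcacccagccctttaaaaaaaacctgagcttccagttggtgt
The matches begin 104 and 85 bases before the start. The other 5 genes with a match were Bst2, Ifit3, Isg15, Oas3 and Rsad2.

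Squamous epithelial genes, which mark the anal margin or squamous cells in the sample, rose strongly and unevenly. Of 19 measured members 13 rose in each genotype (background 12.6% and 16.3%), with medians of 1.48 and 1.63. The list mean ran from 5.23 to 9.05 in treated fl/fl and from 5.26 to 9.27 in treated knockout colon. The median response difference was 0.00. The treated groups spanned nearly the same range. The spread was wide: the response difference of Krt6a was −0.05 with a 95% interval of −2.42 to 2.32, so a gap of 1 log2 unit was not detectable there.

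**Figure D5:**
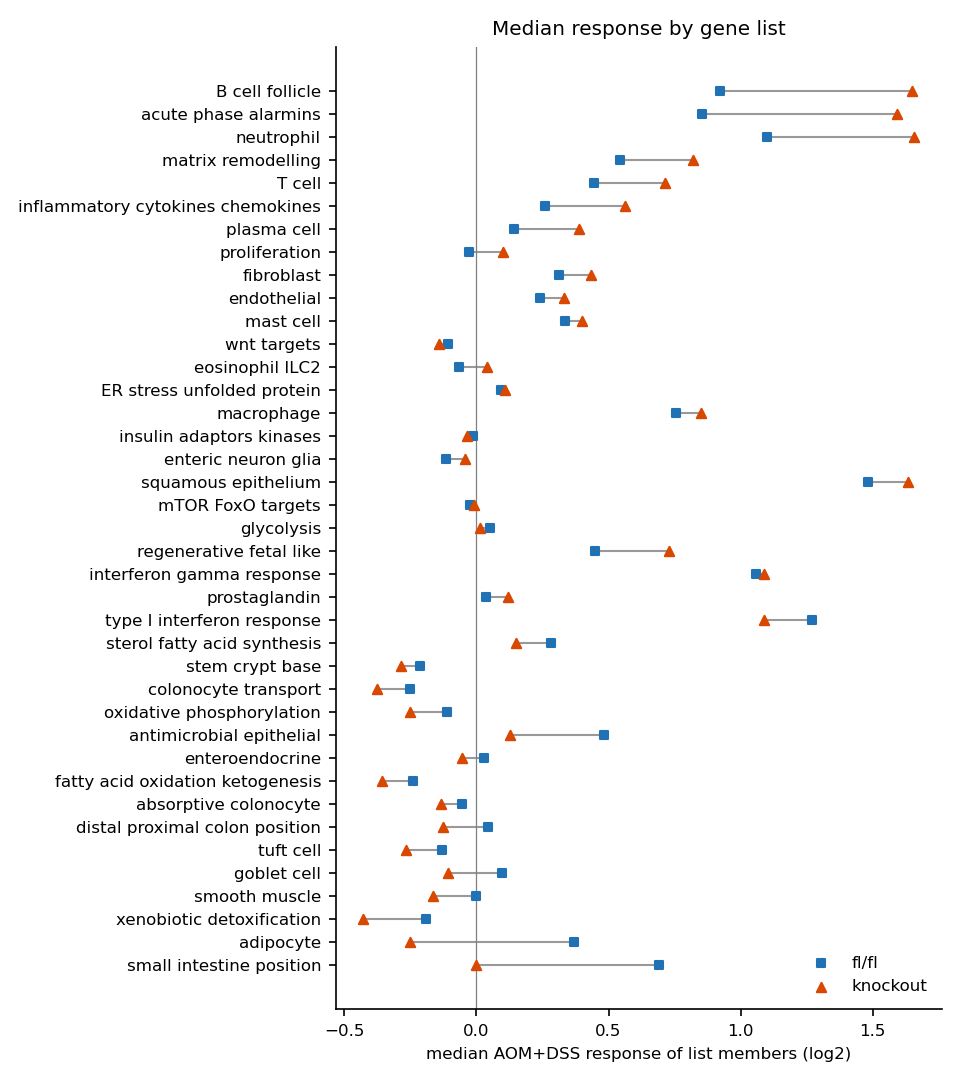
For each of the lists with at least 10 measured members, the square is the median change of its members after AOM+DSS (log2, horizontal axis) in fl/fl and the triangle that in knockout colon, ordered by the median response difference. Triangles lie to the right of squares in immune and matrix lists at the top (B cell follicle, 0.92 and 1.65) and to the left in epithelial, detoxification, muscle and fat lists at the bottom (detoxification, −0.19 and −0.43).

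Detoxification genes had response differences of the other sign. None of 20 measured members had a positive response difference, the median was −0.35, 3 had an unadjusted p under 0.05 (2.76% of all genes in that direction), and none passed. In fl/fl colon 7 fell (background 11.5%) and 1 rose, and in knockout colon 12 fell (background 15.1%). With the B and T cell mean as a covariate the median was −0.18. Without treated fl/fl replicate 7, which had the highest list mean of the treated arrays (9.82), it was −0.26. The list mean ran from 9.00 through 9.31 to 9.82 in treated fl/fl and from 8.51 through 8.98 to 9.31 in treated knockout colon, so the treated groups overlapped in part. Gstm3, a glutathione transferase, fell by 0.70 in knockout colon and had a response of −0.31 in fl/fl, a difference of −0.39 ± 0.19. Ces1g, a carboxylesterase, had a response of −0.07 and fell by 0.61, a difference of −0.54 ± 0.22, and Cyp3a13, a cytochrome P450, passed in neither genotype, with responses of 0.34 and −0.09.

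Genes of the mature epithelium and its metabolism had small negative medians. Goblet cell genes had a median of −0.19, with 15 of 16 members negative, and −0.10 without the untreated knockout array that stood apart and held their highest mean. Atoh1, the factor that sets the secretory lineage, had a response of −0.07 in fl/fl and fell by 0.43 in knockout colon, and Tff3, a trefoil peptide of goblet cells, passed in neither genotype but was lower by 0.25 in treated knockout than treated fl/fl colon (limma, adjusted p = 0.0447). Absorptive colonocyte genes had a median of −0.12, or −0.07 without the same array. Phgr1, a small protein of the gut epithelium, had a response of −0.26 and fell by 0.72, a difference of −0.46 ± 0.15, and Guca2a, the hormone guanylin, fell by 0.57 and by 1.03, a difference of −0.46 ± 0.18. Among transport genes, Scnn1a, a subunit of the epithelial sodium channel, had a response of −0.19 and fell by 0.49 and was lower in treated knockout than treated fl/fl colon by 0.36 (adjusted p = 0.032). Without treated knockout replicate 8 neither Tff3 (adjusted p = 0.123) nor Scnn1a (0.103) passed between treated groups, and single arrays undid these calls in 16 and 9 cases. All 21 genes of oxidative phosphorylation had a negative difference, with a median of −0.11, and 5 fell in fl/fl against 17 in knockout colon (background 11.5% and 15.1%). Of 16 genes of fatty acid oxidation and ketone synthesis, 11 fell in fl/fl and 15 in knockout colon (background 11.5% and 15.1%). Ppara, the nuclear receptor that drives fatty acid oxidation, had a response of −0.16 and fell by 0.52, a difference of −0.36 ± 0.11.

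Crypt and cycling genes had small medians of opposite sign. Stem cell and crypt base genes had a median of −0.09, or −0.06 without untreated knockout replicate 8, and Lgr5, the stem cell receptor, went against the list, falling by 0.77 in fl/fl and by 0.41 in knockout colon, a difference of 0.36 ± 0.19 (limma, adjusted p = 0.761). Rnf43, a ubiquitin ligase that removes Wnt receptors, had a response of −0.18 and fell by 0.38. All 19 proliferation genes had a positive difference, with a median of 0.16, or 0.10 without treated fl/fl replicate 8, but none had an unadjusted p under 0.05. Mki67, the standard marker of cycling cells, passed in neither genotype, with responses of −0.15 and 0.11.

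Among markers of other tissue in the sample, smooth muscle, fat cell and small-intestinal genes had negative medians. Endothelial genes (0.13) and enteric neuron and glia genes (0.01) did not, and no member of these lists passed. All 14 smooth muscle genes had a negative difference, with a median of −0.21, or −0.05 with the B and T cell mean as a covariate, and Actg2, the enteric actin, had responses of 0.19 and −0.08. Fat cell genes had a median of −0.41, and Car3, a carbonic anhydrase of fat and muscle, rose by 1.68 in fl/fl and had a response of −0.40 in knockout colon, a difference of −2.08 ± 0.79, with levels from 6.07 to 10.81 in untreated fl/fl colon alone. Small-intestinal genes had a median of −0.76, which was −0.41 without treated fl/fl replicate 7, whose list mean of 10.22 was far above the next array at 7.64. Their part in the differences of epithelial and detoxification genes was not tested.

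Genes of the insulin pathway had response differences with medians near 0. Among ligands and receptors the median over 7 genes was 0.09, and among 17 adaptors and kinases 0.01, with no member of either at an unadjusted p under 0.05. The first median was 0.04 without untreated fl/fl replicate 8, and the second −0.0093 without treated fl/fl replicate 9. Igf1, the insulin-like growth factor made by stromal cells, ran from 7.42 through 8.11 to 8.96 in treated fl/fl and from 8.07 through 8.49 to 8.91 in treated knockout colon. It rose by 0.98 and by 1.34, a difference of 0.36 ± 0.18 (limma, adjusted p = 0.747). Igf1r, the related receptor, had responses of 0.07 and 0.03, Irs1 had a response of −0.12 and fell by 0.28, and Irs2 had responses of 0.04 and −0.26, with response differences of −0.04 ± 0.12, −0.16 ± 0.12 and −0.30 ± 0.21. Among mTOR and FoxO targets, Pck1, the gluconeogenic enzyme that insulin represses, fell by 0.54 and by 1.15, a difference of −0.61 ± 0.25, while the median of the 21 genes was −0.0048.

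The response difference is the gap between the genotype differences in treated and untreated colon. In untreated colon 3 genes differed between genotypes (0.0135%), 1 higher (0.00451%) and 2 lower (0.00902%) in the knockout, Insr among the lower. In treated colon 178 did (0.803%), 117 higher (0.528%) and 61 lower (0.275%). Shifted to 1 median, the treated count was 28 higher and 55 lower. Calls between treated groups were checked further for 8 genes given above: Icos, Plat, Mmp3, Pdgfra, Tff3, Scnn1a, Mptx1 and Pm20d1. None of the 8 passed with the B and T cell mean as a covariate, and only Pm20d1 with the smooth muscle covariate. The B and T cell mean includes Icos, and both lists were higher in treated knockout than treated fl/fl colon. The losses under it may thus be partly built in. With all 57 arrays in the fit 3 of the 8 passed, and of the 8 only Mmp3 and Pm20d1 passed without each of the 40 arrays. Other genes named above also passed between treated groups, and their calls were not checked in this way. Among them were Insr (limma, adjusted p = 4.79e-09), Klhl6 (0.0217), Tmem98 (0.032), Grap2 (0.038), Naaladl1 and Ogfod3 (both 0.0427) and Phf11a (0.0478). The 2 counts do not show that the genotypes differ more after treatment, since the test of that difference passed in no gene.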

How the data were processed

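The deposited table holds log2 expression values of 41345 probe sets on Affymetrix whole-transcript arrays, made by the authors with RMA per the submitters' processing notes; its version is not given in the sources used here. RMA quantile-normalizes arrays, so a shift of all RNA cannot be seen and changes of dim genes are compressed. Per the labels' protocols, 250 ng of total RNA was amplified. Of the probe sets, 23521 carry exactly 1 symbol, 1814 several and 16010 none here; the brightest per gene gave 22180 genes, with no filter on dim genes. Groups came from the titles, which call the samples biological replicates. limma 3.58.1 in R 4.3.3 (lmFit, contrasts.fit, eBayes) was fitted to the 40 arrays as 4 groups, with two-sided tests and p-values adjusted by the Benjamini-Hochberg method over all 22180 genes (threshold 0.05), and was tested on simulated data. ± is the SE unless SD is named. Arrays have no read depth, and their number limits precision. The 40 arrays had medians of 5.93 to 6.04; the highest correlation between 2 arrays was 0.99447, with no copies.

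The comparison, the 43 gene lists and the naming rule were chosen with earlier results of these data known. Named were Insr, Igf1r, Irs1 and Irs2; up to 12 genes per direction with the smallest p of the response difference among genes whose highest group mean reached the median level of 6.605; genes that passed in both genotypes in opposite directions; up to 4 members per list described by p; and the 6 largest average changes per direction. Lgals4 and Hoxb13, as tissue checks, and Ifit1, Mmp13 and the other genes named with promoter matches fall outside that rule and were chosen after their values were seen. Gene models without an official name, small RNAs, antigen receptor segments, histones and chemosensory receptors entered the counts but are not named. Promoter letters came from RefSeq (GRCm38.p6).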

Additional observations from a re-analysis of the deposited data

Results flagged for a closer look

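In 41 genes and 14 gene lists, each group of 10 arrays was examined for a highest or lowest array far from the rest, by its gap to the nearest array over the group's range (Dixon's criterion). Of 220 such groups, 26 held one, 11.8%, where chance gives about 1 in 20, and the genes were chosen for their response difference. Untreated knockout replicate 2 accounted for 8. It was lowest for B3gnt5 (9.27, next 9.82), Fxyd4 (6.70, next 8.54), Hif1a (9.48, next 10.02), Klhl23 (7.08, next 7.44) and Slc37a2 (9.71, next 11.31). It was highest for Tiam2 (7.63, next 7.21), Vsig2 (10.09, next 8.62) and the goblet cell list (11.38, next 10.69). Treated knockout replicate 2 accounted for 6 and was lowest in each. They were Hif1a at 10.36 (next 10.75), Il1b at 7.59 (next 9.84), Krt6a at 4.22 (next 8.67), Ppbp at 5.29 (next 11.14), Tmprss11g at 4.68 (next 7.98) and the acute-phase list at 5.34 (next 6.54). Other treated knockout arrays were lowest for B3gnt5 (10.07, next 10.23), Cep135 (7.26, next 7.66) and Plekhg6 (7.10, next 7.60). Other untreated knockout arrays were lowest for Bend5 (5.95, next 6.49) and Grap2 (5.36, next 5.77) and highest for Rgs7bp (8.13, next 7.78). In fl/fl colon, Ogfod3 had a low untreated array (8.14, next 8.24). Untreated replicate 4 was highest for the T cell list (6.11, next 5.90) and the macrophage list (8.68, next 8.40), and treated replicate 4 for the macrophage list (9.58, next 9.21). Small-intestinal genes stood out on treated fl/fl replicate 7 (10.22, next 7.64) and untreated fl/fl replicate 10 (7.88, next 6.94). The causes were not tested.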

How the results depend on the processing

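The count of genes that passed the test of the response difference was 0 under 12 of 13 alternatives. It was 1 (Klhl23) without the untreated knockout array that stood apart. Genes at an unadjusted p under 0.05 numbered 1284 to 1985 where all 22180 were tested. Without dim genes they numbered 1212 of 16635. Leaving out each array in turn gave 0 to 1 genes that passed. Arrays with the same replicate number in their titles were slightly more alike than others. Over 60 same-number pairs the median correlation of deviations was 0.067, against −0.019 for pairs of different numbers. Of the same-number pairs 19 were above 0.1, and 4 of 40 arrays correlated best with their own number. What the numbers stand for was not tested. With the number as a block the count was 0, and 8 genes differed between genotypes in untreated and 304 in treated colon. Leaving out each array moved the Insr difference between 0.06 and 0.13. The share of risers with a positive difference moved between 68.7% (without treated fl/fl replicate 1) and 76%. That of fallers with a negative one moved between 57.5% and 67.1%. The count of genotype differences in untreated colon (3) was 1 with all 57 arrays, 8 with array weights, 5 with a smooth muscle covariate, 8 without the array that stood apart and 9 without both knockout arrays that stood apart. The treated count (178) was 83 with arrays shifted to 1 median, 493 with array weights and 528 without both knockout arrays. Without dim genes it was 295 of 16635 genes. It was 2 with the lymphoid covariate (mean of the B and T cell lists) and 6 with the smooth muscle covariate. With the lymphoid covariate, which itself rose after AOM+DSS, 337 genes passed in the fl/fl response, 21 in the knockout response and 250 in their average; with the squamous covariate 2697 passed in fl/fl and 5823 in the average. Of 532 pairs of a named gene and an alternative, 531 kept their side of the threshold, Klhl23 above being the other, and 11 differed in sign without passing in either fit. The causes were not tested. The lymphoid covariate gave shares of 56.3% and 89.9%, which may be partly built in, as said above. Leaving out both knockout arrays, the lymphoid covariate for lists and shares of genes, and single arrays for lists were chosen after seeing the data.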
